A study of Mus musculus with 12 samples.

Results

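H3K4me3 regions that carried H3K27ac in every library were examined in cKit+ bone marrow cells of C57BL/6 mice. Overlapping peaks of the 4 deposited H3K4me3 lists were merged into 44957 regions, of which 24578 held a peak in all 4 lists. A region was kept when its merged width was under 5000 bp and when it overlapped by at least 1 bp a peak in each of the 4 H3K27ac lists. That left 14169 regions, called members here. Members were thus chosen by the measured presence of H3K4me3 and H3K27ac peaks and by the H3K4me3 width, so the presence of both marks at members is a description with no test. The H3K4me1 mark, the position and the sequence were not used by the rule. A peak in all 4 H3K27ac lists was required, so regions whose H3K27ac was present in a single genotype were left out, and only differences in length among shared peaks could be seen.

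The groups were wild type mice (WT) and mice labelled Phf6R274X Tg, which carry the R274X allele of Phf6, an X-linked chromatin protein gene mutated in leukaemia. Chromatin immunoprecipitation and sequencing (ChIP-seq) gave 2 libraries per genotype for each of the marks H3K27ac, H3K4me1 and H3K4me3, and so 12 in all. All came from marrow cells sorted for cKit, the stem cell factor receptor, and both genotypes share the C57BL/6 strain. The labels used here give no promoter for the transgene and no age. They do not state whether animals were pooled or whether replicates are separate mice, so every p-value below measures the spread between libraries. That spread may be technical, but in H3K4me3 it also holds a difference at sex-linked genes, given below. Read depth is not known, since the files hold peaks without counts.

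H3K4me3 is placed at the starts of genes that are transcribed or poised, by the SET1 and MLL complexes that bind unmethylated CpG-rich DNA. H3K27ac is written by the acetyltransferases CBP and p300 at promoters and enhancers in use, and H3K4me1 covers enhancers and the shoulders of active promoters. A promoter with both H3K4me3 and H3K27ac is the usual state of a gene that the cell transcribes, while H3K4me3 without acetylation is common at genes that are silent or held by Polycomb. Very wide H3K4me3 domains are known for cell identity genes, and the width limit sets them apart here.

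Some libraries stood apart. The H3K27ac lists covered between 28.5 and 45.7 Mb, with the least in Tg replicate 1. The H3K4me1 lists covered 66.3 and 70.7 Mb in replicate 1 of WT and Tg, and 119.7 and 117.0 Mb in replicate 2, so their values split by replicate number. Peak names inside each of the 4 H3K4me3 lists state the other genotype than the label does, and every direction for that mark is therefore by label only. The H3K4me3 libraries of replicate 1 had peaks at the Y-linked genes Ddx3y, Kdm5d, Eif2s3y and Uty under both labels, and those of replicate 2, like all H3K27ac and H3K4me1 libraries, had none there. At Xist the order was the reverse. The H3K4me3 libraries of replicate 1 had no peak there under either label. Those of replicate 2 had 5782 bp (labelled WT) and 6877 bp (labelled Tg), and all H3K27ac and H3K4me1 libraries had peaks. In H3K4me3 each label held both patterns, which cannot be told apart from the replicate number. Members thus join marks of libraries that differ in this pattern.

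The promoters of 8 genes are printed first, since they show the range of CpG content and motifs among member genes, beside a gene of each of 2 other classes. Each is the stretch of 250 bases before the annotated start, 5′ to 3′ on the gene's strand, from RefSeq on GRCm38.p6 (mm10). Capitals mark matches on either strand to the GC box GGGCGG (bound by SP factors), the CCAAT box (bound by NF-Y and written ATTGG on the other strand), the ETS motif CCGGAAG, the cyclic AMP element TGACGTCA, the E-box CACGTG, the YY1 motif AAGATGGCG and the TATA element TATAAA.
Rpl12 (chr2:32961462-32961711, + strand): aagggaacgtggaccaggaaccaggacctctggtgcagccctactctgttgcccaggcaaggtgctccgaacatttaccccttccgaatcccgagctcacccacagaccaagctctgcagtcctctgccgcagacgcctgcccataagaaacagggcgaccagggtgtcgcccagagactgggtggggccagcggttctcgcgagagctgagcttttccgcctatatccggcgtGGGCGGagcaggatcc
Mrpl41 (chr2:24975099-24975348, - strand): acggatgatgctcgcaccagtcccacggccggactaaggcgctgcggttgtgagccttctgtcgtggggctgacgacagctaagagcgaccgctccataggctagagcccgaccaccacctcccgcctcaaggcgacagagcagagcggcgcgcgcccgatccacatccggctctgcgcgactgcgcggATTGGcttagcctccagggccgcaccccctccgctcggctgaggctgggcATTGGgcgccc
Mcm6 (chr1:128359706-128359955, - strand): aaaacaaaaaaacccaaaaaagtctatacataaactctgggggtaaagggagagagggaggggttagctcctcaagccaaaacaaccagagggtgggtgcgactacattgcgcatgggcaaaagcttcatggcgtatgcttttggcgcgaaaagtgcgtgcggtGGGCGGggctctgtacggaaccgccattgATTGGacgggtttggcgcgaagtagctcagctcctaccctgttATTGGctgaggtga
Chd4 (chr6:125095731-125095980, + strand): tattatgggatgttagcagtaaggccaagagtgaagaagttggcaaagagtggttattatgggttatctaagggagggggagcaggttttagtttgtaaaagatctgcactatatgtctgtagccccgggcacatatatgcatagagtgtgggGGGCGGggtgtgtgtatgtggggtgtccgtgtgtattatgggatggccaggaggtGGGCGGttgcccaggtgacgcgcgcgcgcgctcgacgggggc
Runx1 (chr16:92697330-92697579, - strand): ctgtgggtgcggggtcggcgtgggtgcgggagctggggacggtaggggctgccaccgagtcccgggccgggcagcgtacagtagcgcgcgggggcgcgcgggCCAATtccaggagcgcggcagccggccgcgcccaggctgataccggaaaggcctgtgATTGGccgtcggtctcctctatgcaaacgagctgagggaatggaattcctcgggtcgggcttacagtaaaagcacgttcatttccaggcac
S100a9 (chr3:90695722-90695971, - strand): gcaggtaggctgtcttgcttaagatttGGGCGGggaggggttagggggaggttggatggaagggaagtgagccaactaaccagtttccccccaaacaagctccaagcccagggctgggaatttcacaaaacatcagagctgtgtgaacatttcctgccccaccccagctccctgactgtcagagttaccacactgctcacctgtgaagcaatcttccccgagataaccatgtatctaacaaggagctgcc
Hoxa10 (chr6:52234940-52235189, - strand): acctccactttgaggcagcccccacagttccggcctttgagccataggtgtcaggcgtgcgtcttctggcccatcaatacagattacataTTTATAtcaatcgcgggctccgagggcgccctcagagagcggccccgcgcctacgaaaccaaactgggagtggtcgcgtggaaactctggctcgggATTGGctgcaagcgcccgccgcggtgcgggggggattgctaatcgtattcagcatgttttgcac
Alb (chr5:90460620-90460869, + strand): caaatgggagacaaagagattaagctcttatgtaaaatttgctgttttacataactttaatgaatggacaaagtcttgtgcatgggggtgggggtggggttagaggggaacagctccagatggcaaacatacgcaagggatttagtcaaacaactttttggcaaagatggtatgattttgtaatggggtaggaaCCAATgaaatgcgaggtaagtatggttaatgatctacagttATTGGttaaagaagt
The first 6 belong to genes with a member at the start. Rpl12 encodes a protein of the cytosolic ribosome, Mrpl41 one of the mitochondrial ribosome, Mcm6 a subunit of the replicative helicase, Chd4 the ATPase of the NuRD complex, Runx1 a blood stem cell transcription factor and S100a9 a calcium-binding protein of granulocytes. Hoxa10 had an H3K4me3 region in all 4 lists with no H3K27ac in any, and Alb, the albumin gene of hepatocytes, had no H3K4me3 region. The ratio of observed to expected CpG was 0.618 for Rpl12, 0.917 for Mrpl41, 0.797 for Mcm6, 0.842 for Chd4 and 0.978 for Runx1. It was 0.913 for Hoxa10, inside the range of those 5 members, and 0.111 for S100a9 and 0.261 for Alb, both CpG-poor.

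Over all 8568 listed starts at members the median CpG ratio was 0.776, against 0.53 over all 21263 starts in the promoter table. Starts under H3K4me3 regions without H3K27ac had a median of 0.672, and starts with no H3K4me3 region had 0.192. The GC box was found in 61.3% of member starts, 67.3% of starts with H3K4me3 and no H3K27ac, and 42.6% of all starts. The ETS motif separated the same classes in another order, since it was in 17.5% of member starts, 3.86% of starts without H3K27ac and 8.98% of all starts. The YY1 motif was in 1.49%, 0.103% and 0.72% of them. The cyclic AMP element was in 3.20% of member starts and 1.92% of all, and the E-box in 8.99% and 6.63%. The CCAAT box differed little, at 36.0% of member starts and 35.4% of all starts. The TATA element was in 5.12% of member starts, 11.6% of all starts and 20.7% of starts with no H3K4me3 region. Motifs can overlap each other and the classes differ in CpG content, so these shares are descriptions of letters in the window and not of bound factors.

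**Figure D1:**
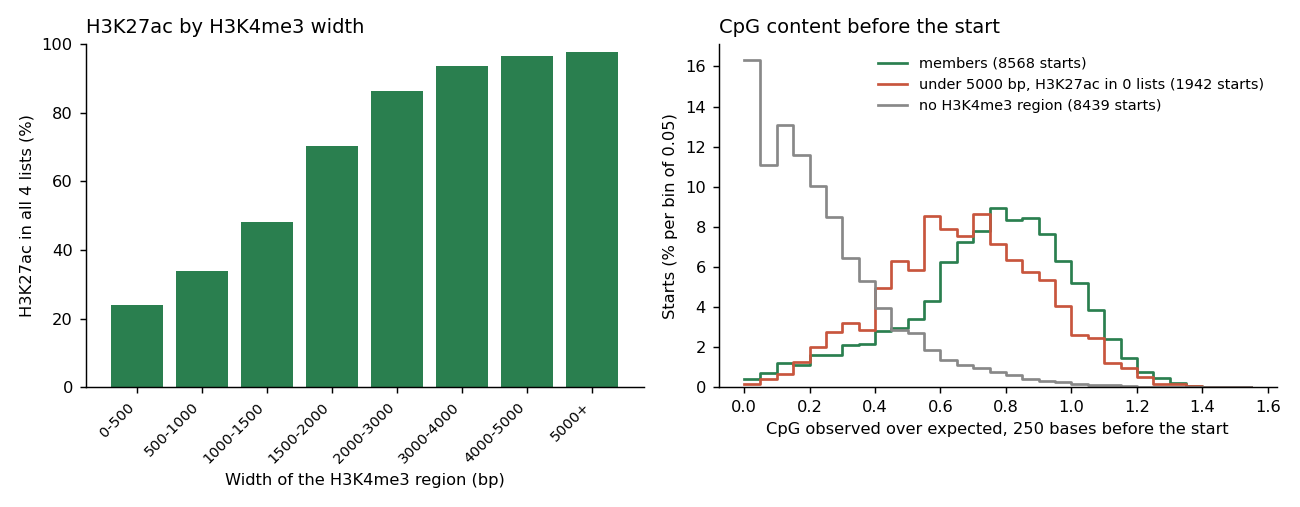
Left, the share of H3K4me3 regions present in all 4 lists that also had H3K27ac in all 4 lists (y axis, %), by width of the region (x axis, bp), was between 24.1% below 500 bp and 97.8% at 5000 bp or more. Right, the distribution of the CpG ratio in the 250 bases before the start (x axis) as % of starts per bin of 0.05 (y axis): members lie highest, with a median of 0.776, and starts with no H3K4me3 region lowest, with 0.192.

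The rule's second condition depended on width. Among regions in all 4 H3K4me3 lists, H3K27ac was present in all 4 lists at 24.1% of those under 500 bp, 48.1% of those of 1000 to 1500 bp, 86.4% of those of 2000 to 3000 bp and 96.6% of those of 4000 to 5000 bp. Members had a median width of 1924 bp (quartiles 1221 and 2716). The 4145 regions of the same width limit with H3K27ac in 1 to 3 lists had a median of 973 bp, and the 5582 with none had 916.5 bp. A further 682 regions were 5000 bp or wider, 667 of them with H3K27ac in all 4 lists. The members just inside the limit lay at Cers6 (4999 bp), near Dhx15 (4998 bp) and at Kctd12 (4998 bp), and the regions just outside it at Npepps (5001 bp), Ssh2 (5003 bp) and Ube2d3 (5005 bp). At the other edge of the rule, members near Itm2b, Gpc6 and Mtss1 overlapped H3K27ac by as little as 1, 3 and 3 bp in their least covered library.

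Of the members, 8102 (57.2%) lay within 1 kb of a protein-coding gene start, 925 (6.53%) at 1 to 5 kb and 5142 (36.3%) farther than 5 kb. The share at a start was 28.3% for regions with H3K27ac in 1 to 3 lists, 46.1% for those with none and 91.8% for the wide regions. Members far from a start were narrower, with a median of 1118 bp against 2425 bp at starts. Of these far members, 2722 (52.9%) lay inside a gene and 757 (14.7%) within 1 kb of an end of a non-coding gene. A pair of genes reading outward from the same region is a divergent promoter. It was found in 652 of 6630 members with a known start inside (9.83%) and in 54 of 517 such wide regions (10.4%). The share was 3.03% in regions with H3K27ac in 1 to 3 lists and 0.863% (15 of 1738) in those without H3K27ac. A wider region can hold more starts, and the part of width in these shares was not tested. Chromosome X held 343 members, or 0.355 for each of its genes, and the autosomes between 0.471 (chromosome 7) and 0.826 (chromosome 12). All 8 members on chromosome Y lay over 1 kb from a start. No H3K27ac library had a peak at the Y-linked genes named above, and the source of the H3K27ac at these 8 was not tested.

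Members stood at 8986 of 21887 protein-coding genes (41.1%). Another 706 genes (3.23%) had a wide region, 2398 (11%) a region without H3K27ac and 7730 (35.3%) no H3K4me3 region. These shares are the background for the gene lists that follow, whose counts are descriptions without a test.

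**Figure D2:**
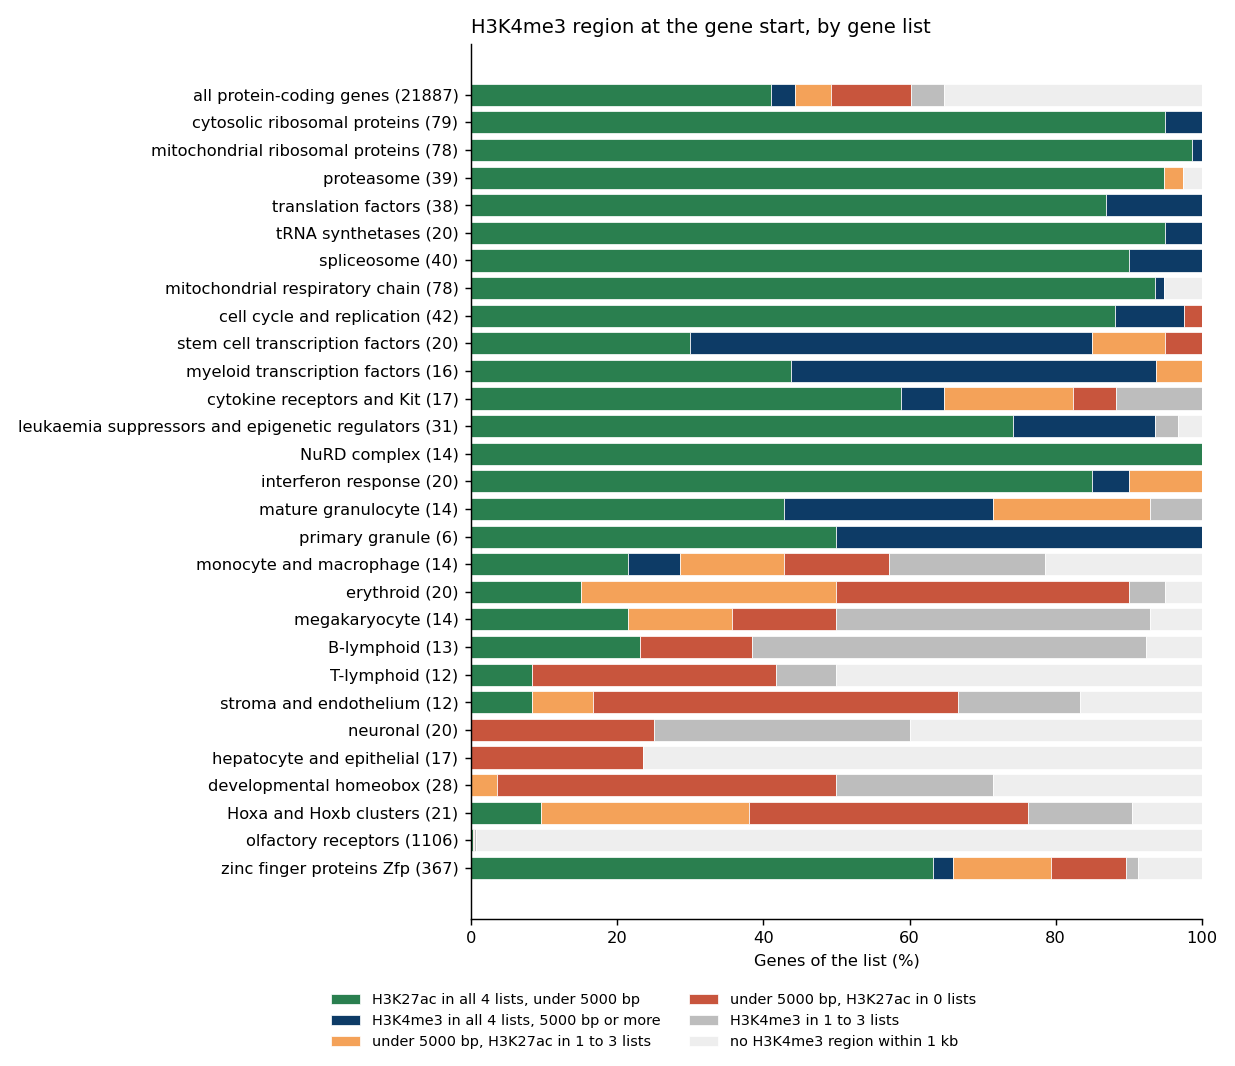
Share of the genes of each list (x axis, %) by the kind of H3K4me3 region within 1 kb of the start, with the number of genes in brackets (y axis, lists); members are green. Members cover over 86% of the ribosomal, proteasome, translation, spliceosome, respiratory chain and replication lists, against 41.1% of all protein-coding genes and none of the neuronal and hepatocyte genes.

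The genes of the protein synthesis machinery were nearly all at members. Of 79 cytosolic ribosomal protein genes 75 had a member and the other 4, among them Rpl18, Rps15a and Rps18, a wide region. Of 78 mitochondrial ribosomal protein genes 77 had a member and Mrps18b a wide region. H3K27ac peak lengths are given in the order WT replicate 1, WT replicate 2, Tg replicate 1 and Tg replicate 2, each as the whole length of the H3K27ac peaks that overlap the region. At Rpl12 (chromosome 2, 32960696 to 32964816, shared with the start of Lrsam1) they were 4337, 3576, 2984 and 4310 bp, and the genotypes overlapped. Rps9, of the small ribosomal subunit, had 3607, 3475, 2581 and 3652 bp on chromosome 7, with the same overlap. Rps4x, the X-linked small subunit gene, had the least H3K27ac of the list at 930, 920, 977 and 1133 bp. Mrpl41 (chromosome 2, 24973544 to 24978354, shared with Pnpla7) had 4555 and 4439 bp in WT against 3667 and 3701 bp in Tg, where the raw lengths did not overlap. Over all members both Tg lengths were below both WT lengths at 47.1% and above them at 6.01%, so such an order at a gene is common and not particular to it. The change of Mrpl41 after normalization was 0.20 on the log2 scale (SE 0.14, limma adjusted p = 0.493). Over all members the median change after normalization was 0.17, and 74.1% were above 0, so a small positive value is no gain particular to a gene.

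Translation and splicing genes were alike in placement. Members stood at 33 of 38 translation factor genes and 19 of 20 tRNA synthetase genes, and the other 5 and 1 had wide regions. Eif5a, the hypusine-carrying elongation factor, had H3K27ac of 4761 and 4322 bp in WT against 3759 and 3360 bp in Tg. Eprs, which charges glutamate and proline tRNAs, had 2289, 2252, 2105 and 2290 bp. Of 40 spliceosome genes 36 had a member and 4, among them Hnrnpa1, Hnrnpu and Srsf2, a wide region. Sf3b1, the branch site factor mutated in myeloid neoplasms, had 4330, 3610, 2927 and 3582 bp. After normalization its change was 0.20, beside the median of 0.17 over all members. The ETS motif was in 44.4% of spliceosome member starts, against 17.5% of all member starts.

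The proteasome and the respiratory chain showed the same placement, and their exceptions were tissue forms. Of 39 proteasome genes 37 had a member, while Psma8, the testis subunit, had H3K27ac in only some lists and Psmb11, the thymus subunit, had no H3K4me3 region. Psma6, of the core's outer ring, had H3K27ac of 3717, 3514, 3496 and 3506 bp. Of 78 respiratory chain genes 73 had a member, and Cox6a2, Cox7b2 and Cox8b, forms known from muscle, testis and brown fat, were among the 4 without an H3K4me3 region.

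Cell cycle and replication genes had members at 37 of 42, wide regions at 4, and a region without H3K27ac at Ccnd1, the cyclin D1 gene. Mcm6 (chromosome 1, 128356816 to 128360428) had H3K27ac of 3502 and 3543 bp in WT against 2898 and 3164 bp in Tg. E2f1, the S-phase transcription factor, had 3132, 3064, 2489 and 2288 bp, and Mki67, the proliferation antigen, 3002, 3264, 1871 and 3144 bp. At Mki67 the low value was that of Tg replicate 1 alone. The CCAAT box was in 73.3% of member starts of this list and the GC box in 80.0%, against 36.0% and 61.3% of all member starts.

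All 14 genes of the NuRD complex, the nucleosome remodelling and deacetylase complex that PHF6 is known to bind, had a member. Chd4 (chromosome 6, 125095556 to 125100318) had H3K27ac of 3191, 3449, 3119 and 2714 bp, Cdk2ap1 3477, 2935, 2142 and 3451 bp and Rbbp7, the histone chaperone on chromosome X, 2613, 2542, 1681 and 2757 bp. In Cdk2ap1 and Rbbp7 the lowest of the 4 values was that of Tg replicate 1. The GC box was in 100% of their 13 listed starts.

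Phf6 itself lay at a member (chromosome X, 52911670 to 52914226, 2557 bp wide). Its H3K27ac was 2210 and 2064 bp in WT against 1988 and 2072 bp in Tg, a span of under 250 bp. The change after normalization was 0.28 (SE 0.14, limma adjusted p = 0.385), beside the median of 0.17 over all members. H3K4me1 within 2 kb of it was 0, 318, 0 and 0 bp. A peak at this start does not check the labels, since a transgene need not contain it.

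Leukaemia suppressor and epigenetic regulator genes had members at 23 of 31 and wide regions at 6. Asxl1, a Polycomb partner, had H3K27ac of 3857 and 3740 bp in WT against 3391 and 3091 bp in Tg, and Kdm6a, the H3K27 demethylase, 3207, 3407, 2973 and 3183 bp. Stag2, of the cohesin ring, had 5439 and 5431 bp in WT against 2526 and 1345 bp in Tg at a region of 1025 bp. That gap did not pass the test (log2 change −0.93, SE 0.34, limma adjusted p = 0.280).

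Genes of blood identity divided between members and wide regions. Of 20 stem cell transcription factor genes 6 had a member (Runx1, Lyl1, Lmo2, Ldb1, Bmi1 and Hoxb4) and 11 a wide region, among them Gata2 at 10535 bp and Myb at 7086 bp. Of 16 myeloid transcription factor genes 7 had a member and 8 a wide region, Cebpa among the latter at 5713 bp. Kit, the receptor used for the sort, had a wide region of 5900 bp, and Flt3 a region with H3K27ac in some lists. Of the progenitor markers, Kit, Gata2, Runx1, Spi1, Cebpa, Myb and Flt3 thus had H3K4me3 in every list. The marker Cd34 is not reported here.

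Runx1 (chromosome 16, 92695072 to 92699217) had H3K27ac of 2422 and 2604 bp in WT against 1920 and 2241 bp in Tg. Lyl1, a helix-loop-helix factor of blood stem cells, had 4578 and 5048 bp in WT against 3776 and 4036 bp in Tg. Lmo2, a LIM adaptor protein of stem cells, had the opposite order, with 999 and 324 bp in WT against 1432 and 2036 bp in Tg (log2 change 1.38, SE 0.30, limma adjusted p = 0.142). Spi1, which encodes PU.1, had the longest mean H3K27ac of the genes in these lists at 13076, 11399, 10479 and 8892 bp, a peak that 4 members share. Nfe2, a megakaryocyte and erythroid factor, had 10671 and 9797 bp in WT against 3660 and 3255 bp in Tg, without passing the test (log2 change −0.96, SE 0.15, limma adjusted p = 0.0959). Inside the Nfe2 region the change was 0.12, so the difference lay in H3K27ac beyond it. Stat3, the cytokine signal transducer, had 2 members at its starts, with 3093, 3323, 1584 and 1783 bp at the wider and 2749, 2873, 572 and 878 bp at the narrower.

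Cytokine receptor genes had members at 10 of 17. Cxcr4, the marrow homing receptor, had H3K27ac of 4170 and 4504 bp in WT against 3632 and 3237 bp in Tg. Csf2ra, of the GM-CSF receptor, had 3638, 3015, 3329 and 3661 bp and Il6ra 2948, 2638, 1875 and 2854 bp, and in both the genotypes overlapped. Of 20 interferon response genes 17 had a member. Irf1 had 4224, 2515, 2204 and 2558 bp and Ifih1, the RNA sensor, 3102, 2201, 2290 and 2299 bp, with WT replicate 1 the highest in both.

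The Hox clusters were mostly outside the members. Of 21 Hoxa and Hoxb genes only Hoxb4 and Hoxa4 had a member. H3K27ac was 1806, 2123, 1979 and 2428 bp at Hoxb4 and 446, 500, 817 and 521 bp at Hoxa4, with overlapping genotypes at the first. The sum of H3K27ac inside the region at each gene start of these clusters, members or not, was 2252 and 3120 bp in WT against 6013 and 5479 bp in Tg. It was 0 in every library at 13 of the 21 genes, among them Hoxa10 printed above.

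Granule genes had members at about the share of all genes, but wide regions at a larger share. Members stood at 42.9% of mature granulocyte and 50% of primary granule genes, against 41.1% of all genes. Wide regions stood at 28.6% and 50% of them, against 3.23% of all genes. Of 14 mature granulocyte genes 6 had a member and 4 a wide region, and all 3 other primary granule genes beside Mpo, Prtn3 and Lyz2, which were wide, had a member. S100a9 (chromosome 3, 90691634 to 90695842) had H3K27ac of 10216 and 24404 bp in WT against 4837 and 4312 bp in Tg. Ngp, a secondary granule protein, had 11191 and 11537 bp in WT against 4777 and 4864 bp in Tg, and Camp, the cathelicidin gene, 5887, 9868, 4230 and 2895 bp. Inside the regions the changes were 0.13 for S100a9, 0.18 for Ngp and 0.01 for Camp on the log2 scale, so the longer peaks of WT reached beyond the H3K4me3 regions. Among primary granule genes Ctsg (cathepsin G) had 3755 and 4180 bp in WT against 8006 and 7514 bp in Tg (log2 change 1.39, SE 0.17, limma adjusted p = 0.0665). Elane, the neutrophil elastase gene, had 579, 873, 1991 and 1076 bp. None of these passed the threshold.

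The lists of monocytes and of other lineages had members at a smaller share of genes than the 41.1% of all genes. The counts were 3 of 20 erythroid genes (Klf1, Tfrc and Fech), 3 of 14 megakaryocyte genes, 3 of 14 monocyte genes, 3 of 13 B-lymphoid genes, 1 of 12 T-lymphoid genes (Lck) and 1 of 12 stroma and endothelium genes (Vcam1). Klf1, the erythroid master factor, had H3K27ac of 1217, 991, 302 and 1101 bp. The B-lymphoid members were Cd79b, Vpreb1 and Bank1. H3K27ac lay in at least 1 list at 10 of the 20 erythroid and 5 of the 13 B-lymphoid genes. It lay in none at the starts of the markers Gata1, Hba-a1 and Hba-a2, Pax5, Cd79a, Ebf1 and Ms4a1, Cd3e, Cd3d, Cd4 and Cd8a, or Col1a1, Col1a2, Cdh5, Lepr and Pdgfrb. Of 20 neuronal and 17 hepatocyte and epithelial genes none had a member, nor had any of 28 developmental homeobox genes, of which 13 had H3K4me3 without H3K27ac. Of 1106 olfactory receptor genes 3 had a member, and of 367 zinc finger genes named Zfp 232 (63.2%).

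**Figure D3:**
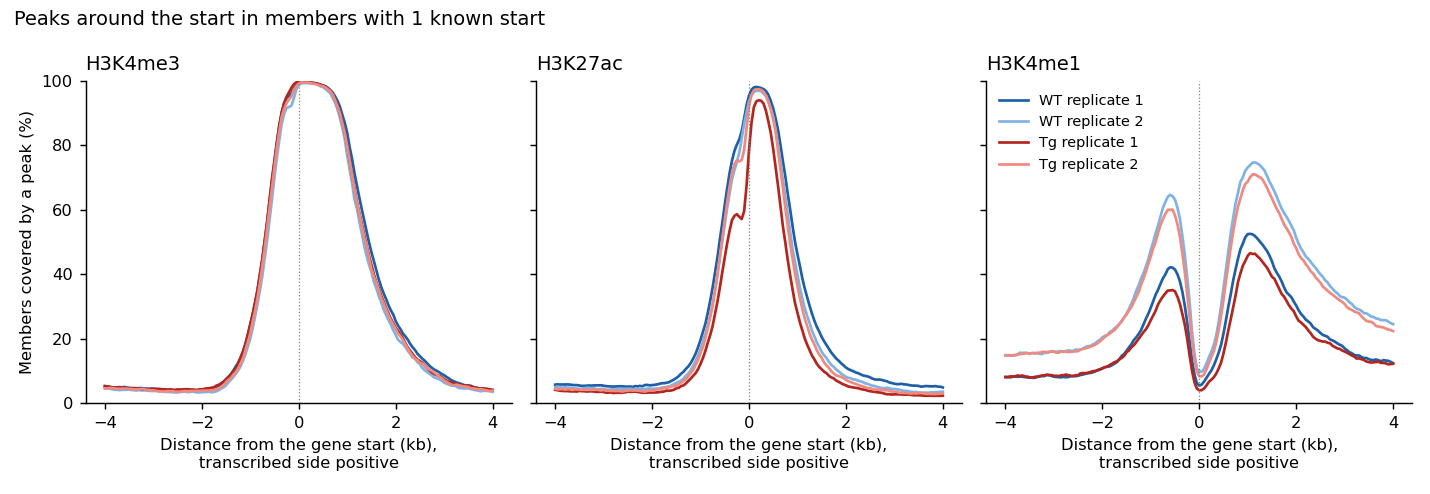
Share of members covered by a peak (y axis, %) at each distance from the gene start (x axis, kb, transcribed side positive) in the 5135 members with a single known start, 1 line per library. H3K4me3 and H3K27ac are highest just after the start, where H3K4me1 is lowest; Tg replicate 1 (dark red) has the least H3K27ac at the start, 78.4%.

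Around the starts the 3 marks were arranged in the same order in all 4 libraries. In 5135 members with a single known start, H3K4me3 covered the start itself in 98.7% to 99.8% and H3K27ac in 95.4% and 93.7% (WT) and 78.4% and 92.1% (Tg). Both marks reached farther into the gene than away from it. H3K27ac at 1 kb downstream covered 46.3%, 39.9%, 28.2% and 36.4% of members, against 19.7%, 16.8%, 12.2% and 15.7% at 1 kb upstream. H3K4me1 had the reverse shape, with 5.49%, 9.89%, 4.03% and 8.41% at the start and maxima of 35.1% to 64.7% upstream and 46.6% to 74.7% downstream. The upstream maximum lay at 550 to 600 bp and the downstream maximum at 1050 to 1150 bp from the start.

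**Figure D4:**
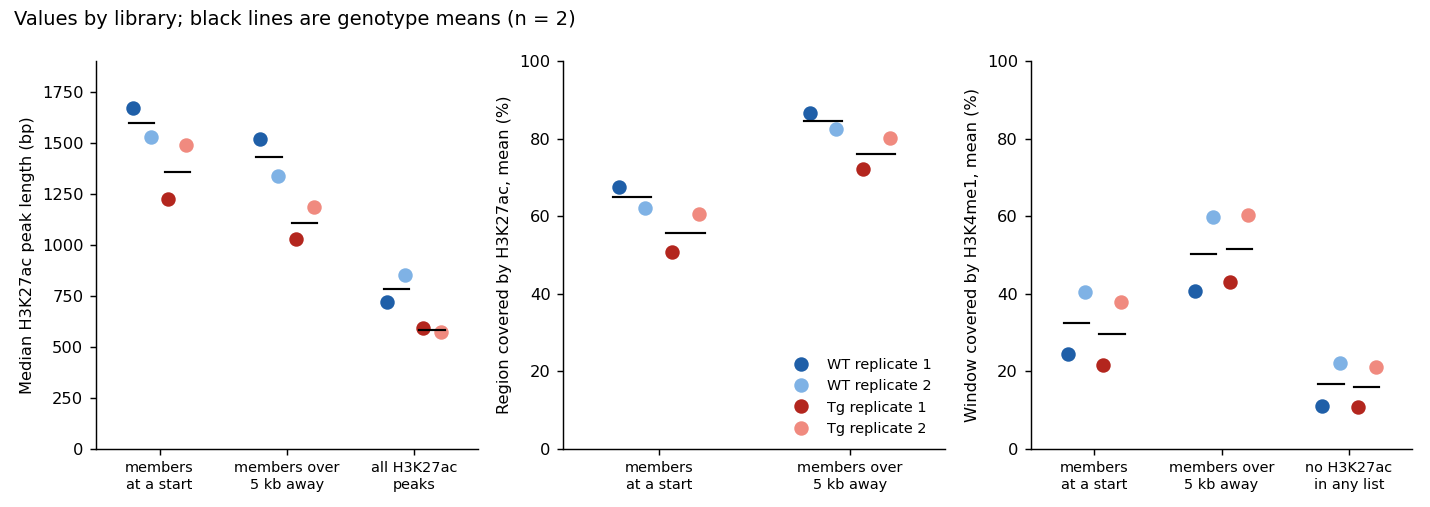
Values of each library (points) with genotype means (black lines, n = 2): median H3K27ac peak length in bp (left), mean share of the region covered by H3K27ac in % (middle), and mean share of the window of the region and 2 kb on each side covered by H3K4me1 in % (right). H3K27ac values are lower in both Tg libraries than in both WT libraries in each class, also over all H3K27ac peaks, and H3K4me1 values split by replicate number.

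H3K27ac covered a larger share of far members than those at starts. The mean share of the region inside H3K27ac peaks was 67.6%, 62.1%, 50.8% and 60.6% at starts and 86.7%, 82.4%, 72.1% and 80.1% over 5 kb away. The difference was −20.1 ± 0.984 percentage points (SD, n = 4 libraries). It is a description, since the rule used H3K27ac and since members at starts are wider, with 2425 against 1118 bp. The H3K27ac lengths had the other order, with medians of 1671, 1527, 1222 and 1491 bp at starts and 1520, 1338, 1028 and 1185 bp far from them.

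H3K4me1 was not used by the rule and was higher around members than around H3K4me3 regions without H3K27ac. Within the region and 2 kb on each side its mean length was 1896, 2949, 1825 and 2867 bp at members and 563, 1140, 549 and 1077 bp at those without H3K27ac. The difference was 1552 ± 286 bp (SD, n = 4), higher at members in 4 of 4 libraries (two-sided exact sign-flip permutation p = 0.13, the smallest that 4 libraries allow). Among regions of like width, 1000 to 1500 bp, the share of the window covered was 44.5% ± 9.51 at 2348 members and 16.8% ± 6.56 at 1495 regions without H3K27ac (SD over 4 libraries). At starts it was 24.5%, 40.4%, 21.5% and 37.9% for members and 9.40%, 20.6%, 9.30% and 19.3% for those without. Members over 5 kb away had more still, at 40.8%, 59.7%, 43.0% and 60.3%. Members as a whole were not the highest class. The mean share of the window was 39.8% at members, 50.1% at wide regions and 31.9% at regions with H3K27ac in 1 to 3 lists. Inside the region alone the shares were 56.6%, 54.7% and 58.7% in the same order. The most H3K4me1 lay at a member near Ccdc88c, with 6844, 8803, 8649 and 8803 bp, while Hmgn5, Nbdy and Tceal8 on chromosome X and members near Shcbp1 (chromosome 8) and Zfp637 (chromosome 6) had 0 bp in every library.

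The comparison of genotypes asks whether the acetylation of stably marked H3K4me3 regions differed in Phf6R274X Tg cells. Over members the median H3K27ac peak length was 1611 and 1460 bp in WT against 1144 and 1370 bp in Tg, a difference of −278.5 bp (two-sided exact permutation p = 0.33, the smallest that 2 against 2 libraries allow). The mean share of the region covered was 75.5% and 70.5% in WT and 59.6% and 68.6% in Tg (−8.89 points, exact permutation p = 0.33). H3K27ac lay in a single peak at 88.4% and 90.3% of members in WT and 77.7% and 81.2% in Tg. Shorter peaks were not limited to members, as the median over all H3K27ac peaks was 717 and 852 bp in WT against 591 and 574 bp in Tg. Since the depth of the libraries is unknown, its part in these differences was not tested.

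Region by region the lengths were compared in limma after quantile normalization, which removes such differences between whole libraries. Of all 25756 H3K4me3 regions with H3K27ac in at least 2 lists 0.687% passed the adjusted p of 0.05, and of the 14169 members 9 did (0.0635%). That gap is partly fixed by the rule, since the 25756 include regions with H3K27ac in a single genotype. Among the 18909 of them with H3K27ac in all 4 lists, members included, 0.18% passed. By direction 0.0544% of all regions were called higher and 0.633% lower in Tg, and 1 member was higher and 8 were lower. With a pseudocount of 100 bp or with the replicate number as a block 0 members passed (1269 and 788 at an unadjusted p under 0.05), and without the filter on covered libraries 37 were higher and 14 lower. Without any single one of the 4 libraries 0 members passed (426 to 1753 at an unadjusted p under 0.05). Without normalization 43 members passed, 0 higher and 43 lower. The counts under these alternatives are of members alone. The shares of all regions are not reported for them, so members are not set against all regions there. At an unadjusted p under 0.05 there were 1515 members (10.7%), 13.8% of the regions with H3K27ac in all 4 lists and 17.9% of all regions tested, from which nothing is read for the same reason. The median change of members was 0.17 and that of all regions 0.11 with normalization, and −0.18 and −0.23 without it, so a direction for most members depends on the scaling. With normalization 74.1% of members had a change above 0, and without it 18.8%. The values of 99.5% of members at starts lay within 1 of 0 on the log2 scale.

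None of the 9 lay within 1 kb of a start. The member that rose in Tg lay between genes, 47409 bp from the start of Atf7ip (chromosome 6, 136470574 to 136471442), with H3K27ac of 1483 and 1333 bp in WT against 4296 and 4647 bp in Tg (log2 change 1.82, SE 0.15, limma adjusted p = 0.0437). The member with the largest fall lay 2707 bp from the start of S100a8, the partner of S100a9 (chromosome 3, 90663595 to 90666364), with 8750 and 8606 bp in WT against 706 and 809 bp in Tg (log2 change −2.39, SE 0.15, limma adjusted p = 0.0416). A member 4133 bp from the start of Plaur, the urokinase receptor gene of myeloid cells (chromosome 7, 24457473 to 24458350), fell from 11586 and 11318 bp to 1397 and 1414 bp. A member 2002 bp from the start of Pde4b, a cyclic AMP phosphodiesterase gene (chromosome 4, 102566902 to 102568058), fell from 9937 and 9779 bp to 1425 and 1543 bp.

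The other 5 lay inside genes. A member nearest to Slc2a3, a glucose transporter gene, 33117 bp from its start, fell from 6585 and 5547 bp to 390 and 636 bp. A member 1815 bp from the start of Ripor2, a regulator of RhoA, fell from 4554 and 4206 bp to 378 and 473 bp. A member 4031 bp from the start of Sh2d3c, a signalling adaptor gene, fell from 11276 and 10843 bp to 2047 and 2130 bp. Members near Gramd1b, a sterol transfer gene (7801 and 7285 bp to 837 and 1237 bp), and near the predicted gene Gm40814 (4492 and 4090 bp to 309 and 324 bp) also fell. In each of these 5 both Tg values were below both WT values. Passing the test with 2 libraries per genotype selects for such a gap, so the gap adds no support.

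**Figure D5:**
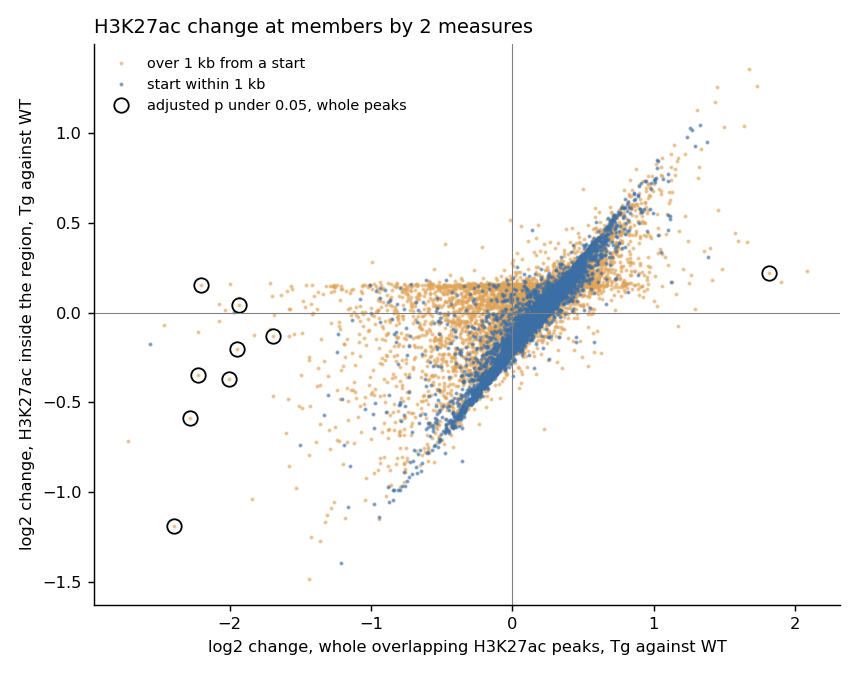
Log2 change of H3K27ac in Tg against WT at each member, by the whole length of the overlapping peaks (x axis) and by the length inside the region alone (y axis), after quantile normalization; blue points have a start within 1 kb, and circles mark the 9 members that passed the test on whole peaks. The circled members spread from −2.39 to 1.82 along the x axis and stay between −1.19 and 0.22 along the y axis.

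In bp, these 9 changes were mostly of H3K27ac outside the H3K4me3 region. The length inside cannot exceed the width of the region, 502 to 3488 bp here, so this is partly fixed by the measure. Inside the region near Plaur H3K27ac was 878 bp in all 4 libraries, which is its full width, and in that of Pde4b 1157, 1157, 1157 and 934 bp. Near S100a8 the inner length was 2679 and 2265 bp in WT against 605 and 725 bp in Tg, and near Slc2a3 1192, 1168, 390 and 636 bp. It was 502, 502, 80 and 321 bp near Gm40814 and 861, 791, 378 and 473 bp near Ripor2. Near Gramd1b it was 937, 937, 500 and 758 bp, and near Sh2d3c 2889, 2497, 2047 and 2130 bp. Near Atf7ip, the member that rose, it was 756, 869, 869 and 869 bp. Counted inside the region, 0 members passed the test in limma (890 at an unadjusted p under 0.05). The granulocyte genes differed in the same libraries: the summed H3K27ac inside the regions at the 14 mature granulocyte genes was 51343 and 49363 bp in WT against 32314 and 34051 bp in Tg, with 4 of the 14 genes at 0 in at least 1 library and none at 0 in all 4. The same sum was 19526 and 17540 bp in WT against 20636 and 25465 bp in Tg at the 6 primary granule genes, and 13474 and 13996 bp against 7589 and 10079 bp at the 14 monocyte genes. At the 79 cytosolic ribosomal protein genes it was 168361, 155650, 137477 and 154728 bp, also lower in both Tg libraries. The part of the granulocyte genes in the falls near S100a8 and elsewhere was not tested, and in bulk samples fewer cells of a type and less signal per cell cannot be told apart.

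H3K4me1 and H3K4me3 gave no call in limma, with 0 of 40044 (0%) and 0 of 39767 (0%) regions past the adjusted p of 0.05 among all those tested. At an unadjusted p under 0.05 there were 688 of 13868 members for H3K4me1 (all regions 6.55%) and 318 of 14169 for H3K4me3 by label (all regions 6.63%). The other 301 members had H3K4me1 in fewer than 2 lists and were not tested. Nlrp1a, an inflammasome sensor gene, had the smallest p on the higher side of H3K4me1 (log2 change 1.61, limma adjusted p = 0.487) and Sesn2, a stress response gene, was among the lower (−1.76). In H3K4me3 by label the smallest p on the higher side was near Mrgpra2b (1.18) and that on the lower side near Irf2 (−0.72), both with limma adjusted p = 0.506. At the 77 members of cytosolic ribosomal protein genes 76 had a change below 0 in H3K4me3 by label, with a median of −0.14 against −0.01 over all regions and 0 calls. Over all members 48.5% were below 0. If the peak names rather than the labels held, the same 76 would be above 0. Their median H3K4me3 length within 2 kb was 3457 and 2937 bp in the libraries labelled WT and 2819 and 3039 bp in those labelled Tg, so the labels overlapped.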

How the data were processed

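Per the labels' protocols, cKit+ cells were sorted from marrow, chromatin was precipitated with the True MicroChIP kit and 75 bp single-end reads were made. The submitters' processing notes name FastQC, Trim Galore and Bowtie2, followed by SAMtools, MACS2 and deepTools, and the build mm10. Versions, thresholds and input libraries are not given in the sources used here. The authors deposited 1 narrowPeak list per library, with positions, a ratio (fold enrichment), −log10 p- and q-values and a score. Only the positions and, for a stricter alternative, the deposited −log10 q-values were used.

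Lengths covered by peaks were computed with Python 3.11.15 and pandas 2.3.3. H3K27ac was measured as the whole length of peaks overlapping a region, and H3K4me1 and H3K4me3 within the region and 2 kb on each side. Changes are differences of log2(length + 500 bp), quantile normalized, and understate the change of short lengths. They were tested in limma 3.58.1 (R 4.3.3) over all merged regions covered in at least 2 of 4 libraries, without a replicate block, with Benjamini-Hochberg adjustment at 0.05. Classes of regions were compared in 19 sign-flip tests over 4 libraries, whose smallest p of 0.13 no adjustment lowers, and only that of H3K4me1 length is printed. The limma script was tested on simulated data. Starts of 17492 genes came from a RefSeq promoter table of GRCm38.p6, and for another 4408 either annotated end was used. Nars1, Mx1, Mx2 and Azu1 had no match.

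The members and the gene lists were chosen with earlier results of these data known. Named are the members with the largest changes past the threshold, up to 8 in each direction, or the 4 with the smallest p where fewer than 4 passed. From each list the 3 members with the longest H3K27ac and up to 3 genes without a member were named, beside those at the edges of the rule and the marker genes. Some genes that this rule names are not reported here. Rps4x, Lmo2, E2f1, Mki67 and other list genes beyond these were chosen after their values were seen. Alternatives were other pseudocounts, scalings, filters, windows, widths and peak thresholds, a replicate block, and leaving out each replicate.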

Additional observations from a re-analysis of the deposited data

How the results depend on the processing

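The number of members was 11490 to 15738 under other widths, gaps and peak thresholds and when leaving out each replicate, and 8054 when H3K27ac had to cover 50% of the region in each list. The share at a start was 64.5% at a −log10 q of at least 5, 47.3% at 50% cover, 49.9% under 3000 bp, 58.7% under 10000 bp, 56.2% with starts within 250 bp, 63.7% within 5 kb, and 54.5% to 56.2% when leaving out each replicate. The 9 members called in H3K27ac became 0 with a pseudocount of 100 bp and 49 with 2000 bp (4 higher and 45 lower), 43 without normalization, 51 without a filter (37 higher and 14 lower), 28 with H3K27ac required in all 4 libraries, and 7 at equal total covered length. They became 0 with the length inside the region, with the length within the region and 2 kb, at a −log10 q of at least 5, and without each replicate in turn (0 to 0), with 426 to 1753 at an unadjusted p under 0.05 in limma over these settings. All these are counts of members alone, without the share of all regions beside them, and their causes were not tested. Inside the region the change after normalization was 0.16 near Plaur and 0.043 near Pde4b, opposite in sign to that of whole peaks. The lengths before normalization did not rise in Tg. They were 878 bp in every library near Plaur, and 1157 and 1157 bp in WT against 1157 and 934 bp in Tg near Pde4b.

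With the replicate number as a block 0 members were called (788 unadjusted). The numbers are not stated to pair mice, and deviations of libraries with the same number had a correlation of −0.106 in H3K27ac, −0.109 in H3K4me3 and 0.228 in H3K4me1. A crossed replicate block, chosen after seeing the data, gave 0 calls in H3K27ac and 0 in H3K4me3. H3K27ac lengths and shares over members stayed lower in Tg under every alternative run for them. H3K4me1 stayed higher at members than at regions without H3K27ac under every alternative run for it. The depth of the libraries is unknown, so it could not be weighed against the shorter Tg peaks.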
